A study of Mus musculus with 27 samples.

Results

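The 9 tumors compared here (of 27 samples) were selected on their line and split by their level of Met, the gene of the receptor tyrosine kinase that binds hepatocyte growth factor. They had been grown from 3 immortalized neural stem cell lines, numbered 31, 59 and 123, with 3 tumors per line. A tumor was Met-high where its Met level on the deposited log2 scale was at least 11.5, and Met-low otherwise, which gave 4 Met-high and 5 Met-low tumors with both kinds in every line. The split was made from the Met values of these same arrays. Every difference between the classes below is therefore a description with its standard error (SE), and no per-gene p-value is given for it.

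The series measured total RNA, extracted with Trizol and labelled with biotin, on Affymetrix arrays. It held 10 immortalized lines, 2 normal neural stem cell (NSC) cultures, 12 tumors of lines 1, 31, 59 and 123, and 3 samples of subcutaneous tissue (SubQ). Lines 31 and 59 were labelled p53 mutant, and lines 1 and 123 WT. All samples, controls included, carried the host strain label CB17/ICR-Prkdcscid/IcrCrl, a severe combined immunodeficiency (SCID) mouse, and the tumors carried the tissue label of the subcutaneous samples. The labels called the 3 tumors of a line biological replicates without saying whether each came from its own animal, so the spread between them may be partly technical. Each line was 1 line, and each line in culture was 1 array. A tumor array reads tumor and host cells together, so fewer cells of a type and less RNA per cell cannot be told apart.

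MET sits in the cell membrane and is activated when hepatocyte growth factor, the product of Hgf, brings receptor molecules together. Its phosphorylated tail recruits adaptors such as GAB1 and GRB2, which feed the RAS-MAPK and PI3K-AKT pathways and drive growth, scattering and invasion. In mouse, Met lies on chromosome 6 beside the caveolin genes Cav1 and Cav2 and the actin-capping gene Capza2.

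Met was read by 1 probe set. It stood at 11.97 in line 31 tumor 3, at 12.02 in line 59 tumor 2, and at 12.64 and 12.47 in line 123 tumors 1 and 3. The Met-low tumors stood at 8.33 and 7.41 (line 31 tumors 1 and 2), 9.28 and 8.88 (line 59 tumors 1 and 3) and 10.18 (line 123 tumor 2). This order of the 4 Met-high and then the 5 Met-low tumors is kept for all values below. The classes left a gap from 10.18, the highest Met-low value, to 11.97, the lowest Met-high value. Met-high tumors averaged 12.28 ± 0.33 (SD, n = 4) and Met-low tumors 8.82 ± 1.04 (SD, n = 5). The line-adjusted difference, from a linear model with the line as a block, was 3.14 ± 0.30 (SE), and the line differences were 4.11, 2.94 and 2.37 in lines 31, 59 and 123. In line 123 each difference rests on 2 Met-high tumors and 1 Met-low tumor.

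The 3 tumors of line 1, which all lay below the threshold and entered no contrast, had Met at 9.81, 10.53 and 10.19. The SubQ samples had it at 4.87, 5.90 and 4.80. In culture, lines 31, 59 and 123 stood at 10.64, 10.82 and 11.30, the 10 lines together ran from 9.79 to 11.30, and the 2 normal NSC cultures stood at 5.59 and 5.75. Culture and tissue arrays appear to have been normalized as separate sets: array medians were 7.02 to 7.08 in cultures and 5.47 to 5.57 in the 9 tumors, so a level in culture is not set against a level in tumor. Within the tissue arrays, each of the 4 Met-high tumors was above all 3 line 1 tumors, and each of the 9 tumors was above all 3 SubQ samples.

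**Figure D1:**
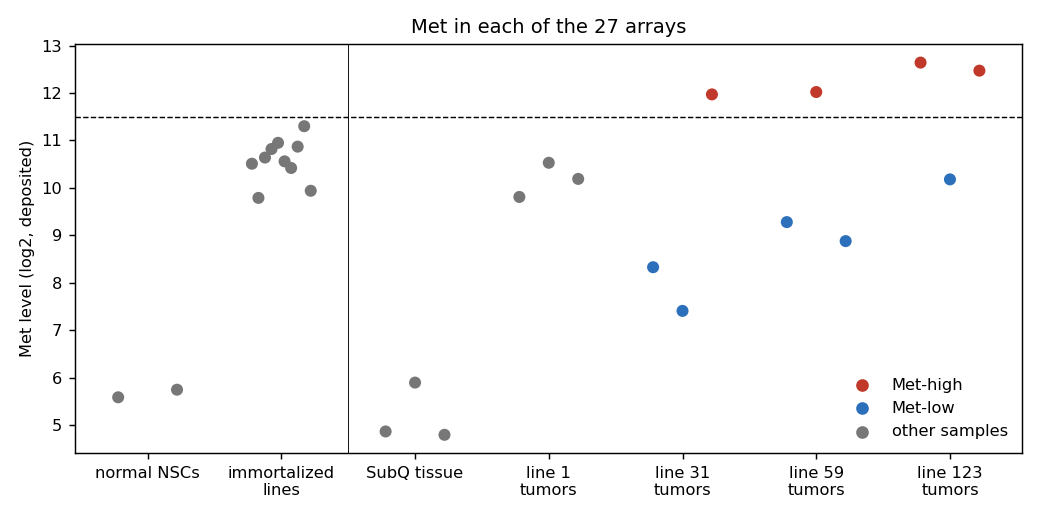
Met level (log2, deposited values) in each of the 27 arrays, 1 point per array, by group, with the rule's threshold of 11.5 as a dashed line and a vertical line between culture and tissue arrays. The 4 Met-high tumors lie between 11.97 and 12.64 and every other tissue array lies at or below 10.53.

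Over the 19936 genes other than Met, the median difference was -0.005, a value that the scaling of the arrays holds near 0. Correlations between pairs of the 9 tumors, within and between classes, were 0.942 to 0.985. A gene is called separated here where every Met-high tumor lay beyond every Met-low tumor of its own line, in the same direction in all 3 lines. That held for 679 genes in the higher direction (3.41%) and for 647 in the lower direction (3.25%). With a difference of at least 2-fold added, 35 genes were higher (0.176%) and 11 were lower (0.0552%). These shares are the background for every count below. A limma fit called 1 gene, Capza2, at an adjusted p under 0.05 (0.00502%) and 1145 at an unadjusted p under 0.05 (5.74%); nothing is read from either count, since the samples were split on one of their own values. The neural origin of the lines showed weakly in the tumors, most clearly in Nes and Sox2 of line 59. Nes, an intermediate filament of neural progenitors, stood at 7.85 to 8.02 in line 59 but at 5.64 to 6.32 in line 31 and 5.70 to 6.66 in line 123, with SubQ at 4.61 to 5.70. Sox2, a transcription factor of neural stem cells, ran from 3.99 to 7.66 over the 9 tumors. It was at 3.99 to 5.68 in line 31, 6.64 to 7.66 in line 59 and 5.40 to 6.78 in line 123, with SubQ at 5.68 to 6.06. Gfap, the astrocyte filament, ran from 4.57 to 6.25 in the tumors and from 5.43 to 6.77 in SubQ.

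Of the 35 separated genes that were at least 2-fold higher, 6 lay beside Met on chromosome 6, and the 5 with the largest differences, St7, Lsm8, Capza2, Cftr and Cav1, were among those 6. Capza2, the next gene on chromosome 6, encodes a subunit of the protein that caps the growing ends of actin filaments. It stood at 12.65, 12.09, 12.29 and 11.99 in the Met-high tumors, and at 9.86, 9.30, 9.75, 9.20 and 10.41 in the Met-low tumors. The classes did not overlap, and the difference was 2.47 ± 0.25 (SE), or 3.08, 2.61 and 1.73 by line. Capza2 was the only gene, Met left out, that was at least 2-fold above the highest Met-low tumor of its line in all 4 Met-high tumors (1 of 19936, 0.00502%). Line 1 tumors had Capza2 at 9.47 to 10.08, within the range of the Met-low tumors.

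On both sides of Met and Capza2, the neighbours were high in some Met-high tumors and not in others. Cav1 and Cav2 encode the caveolins that coat membrane pits. Cav1 stood at 12.47, 12.96, 12.91 and 12.03 in the Met-high tumors, and at 8.99, 8.84, 10.89, 10.51 and 11.49 in the Met-low tumors, a difference of 2.26 ± 0.38. Cav2 stood at 11.46, 11.85, 11.48 and 8.39 in the Met-high tumors, and at 7.52, 7.09, 8.36, 8.39 and 9.04 in the Met-low tumors. Line 123 tumor 3, although Met-high, thus had Cav2 below the Met-low tumor of its own line. Tes, which encodes testin, a LIM-domain protein of focal adhesions, had the same shape: 12.06, 12.75, 12.37 and 9.34 in the Met-high tumors, and 8.36, 8.03, 8.81, 9.18 and 9.66 in the Met-low tumors.

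On the other side the exception was the other tumor of line 123. St7, named as a suppressor of tumorigenicity, stood at 10.23, 10.13, 7.29 and 9.66 in the Met-high tumors, and at 6.56, 6.28, 6.70, 6.67 and 7.18 in the Met-low tumors. Lsm8, which encodes a subunit of the ring that binds U6 spliceosomal RNA, stood at 12.48, 11.03, 9.27 and 11.57, against 8.33, 7.56, 8.74, 8.55 and 8.81. In line 123 tumor 1 both genes were within 0.5 of the Met-low tumor, although Met itself was at 12.64 there. The class differences of St7 and Lsm8, 2.85 ± 0.53 and 2.84 ± 0.57, therefore average 3 tumors in which the gene was high and 1 in which it was not.

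Counted as genes at least 2-fold above the highest Met-low tumor of the line, each Met-high tumor had its own stretch of raised genes around Met. In line 31 tumor 3 it held 13 genes besides Met, from Tfec, a transcription factor gene, through Tes, Gm4876, Cav2, Cav1, Capza2, St7, Wnt2, Asz1, Cftr, Lsm8 and Ankrd7 to Tspan12, a tetraspanin gene. In line 59 tumor 2 it held 10, from Mdfic to Ankrd7, and passed over Tfec, Wnt2, Asz1 and Cttnbp2. In line 123 tumor 1 it held 8 and ended at Capza2: Mdfic, Tes, Gm4876, Cav2, Cav1 and Capza2, with Tmem106b and Vwde farther off. In line 123 tumor 3 it held 8 and ran the other way, with Capza2, St7, Wnt2, Cftr, Cttnbp2, Lsm8, Ankrd7 and, farther off, Ptprz1. Over all 19936 genes, the same rule was met by 393 genes in line 31 tumor 3 (1.97%), 46 in line 59 tumor 2 (0.231%), and 157 (0.788%) and 163 (0.818%) in line 123 tumors 1 and 3. The stretches of the 2 tumors of line 123 shared Capza2 and Met and no other gene.

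Genes known mostly from other tissues were among the raised neighbours. Cftr, the chloride channel gene of epithelia, stood at 8.28, 5.01, 4.55 and 7.01 in the Met-high tumors and at 3.07 to 4.44 in the Met-low tumors. Wnt2, a secreted Wnt ligand gene, stood at 7.27 in line 31 tumor 3 and at 6.78 in line 123 tumor 3, but at 5.08 and 4.80 in the other Met-high tumors, against 4.73 to 5.28 in the Met-low tumors. Asz1, a germ cell gene, stood at 5.27 in line 31 tumor 3 and at 3.04 to 3.69 in the other Met-high tumors, against 2.87 to 3.46 in the Met-low tumors. Vwde stood at 10.63 in line 123 tumor 1 and at 4.24 to 5.17 in the other tumors of the 3 lines. Foxp2, Ppp1r3a and Gpr85, which lie beyond Mdfic, were raised in no Met-high tumor, and neither were Kcnd2, Ing3, Cped1, Wnt16 and Fam3c on the far side. Lsm8, Ankrd7, Gm4876, Tmem106b, Vwde and the other genes named here that lie outside the fixed list of Met neighbours are named because of their place or after their values were seen. DNA copy number was not measured in the files used here.

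**Figure D2:**
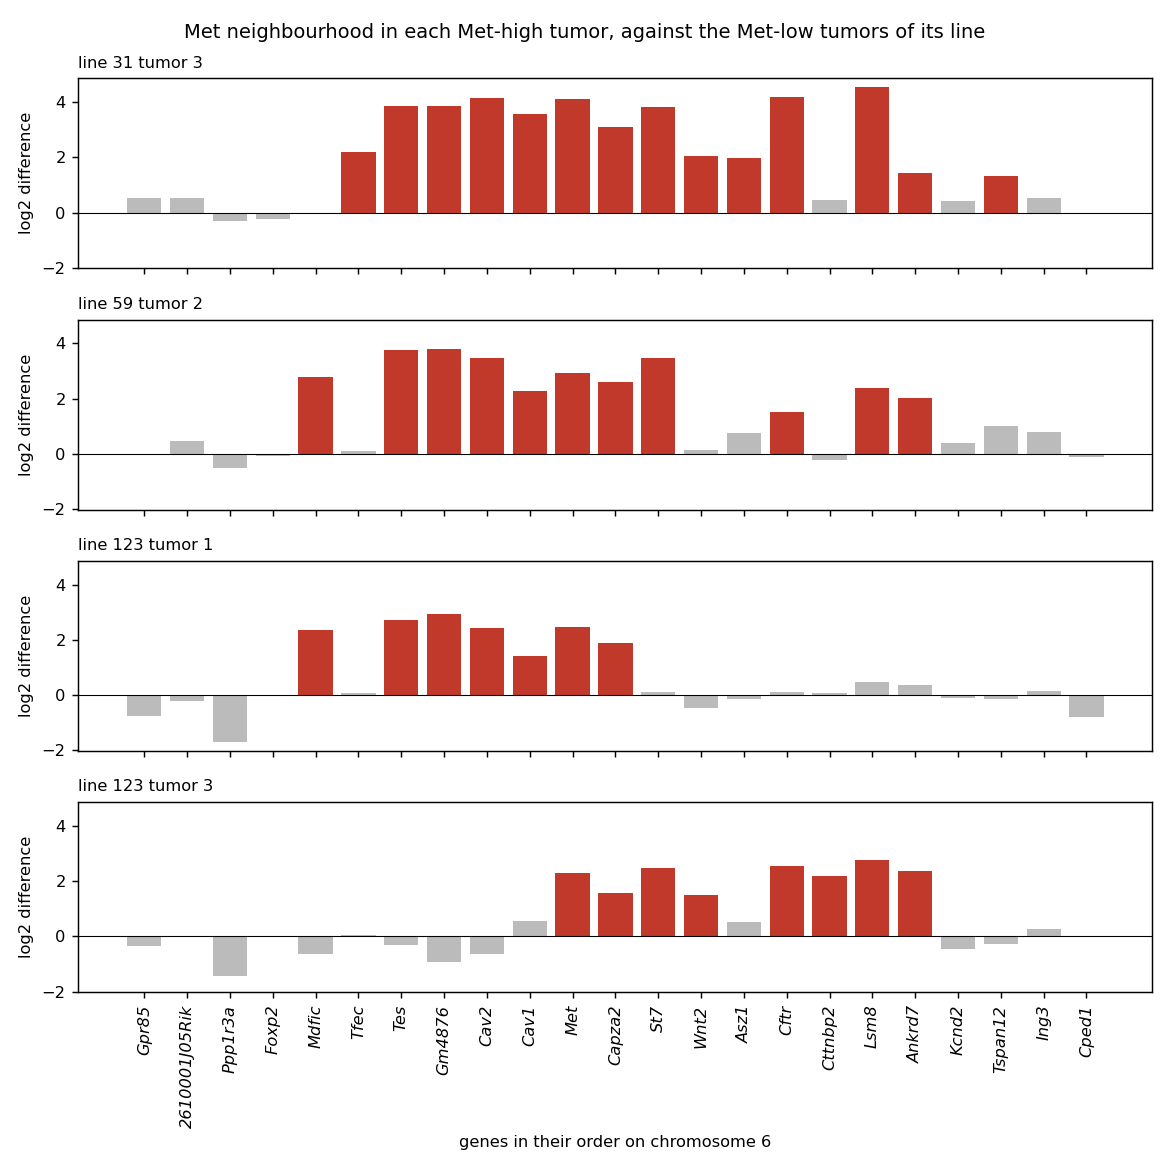
Log2 difference of each Met-high tumor from the mean of the Met-low tumors of its own line, for genes in their order on chromosome 6, 1 panel per tumor. Red bars mark Met and genes at least 2-fold above the highest Met-low tumor of the line: they run from Tfec to Tspan12 in line 31 tumor 3, from Mdfic to Ankrd7 in line 59 tumor 2, end at Capza2 in line 123 tumor 1, and start at Met in line 123 tumor 3.

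The same question was put to the whole genome with a running median over 15 neighbouring genes, for the 19851 genes that RefSeq places. The highest value in each of the 4 Met-high tumors fell in the Met neighbourhood: 3.55 in line 31 tumor 3, 2.39 in line 59 tumor 2, 1.43 in line 123 tumor 1 and 1.5 in line 123 tumor 3. Outside it the highest values were 1.53, 0.39, 0.64 and 0.51. The same scan was run for line 31 tumor 1, line 59 tumor 1 and the line 1 tumors, each against Met-low or line 1 tumors of its own line. It gave highest values of 0.41 to 0.79, with none beside Met. Line 123 tumors 1 and 3, both Met-high, were not scanned against each other. The 1.53 of line 31 tumor 3 lay on chromosome 9, around the inflammatory caspase genes Casp1 and Casp4, the glutamate receptor gene Gria4 and the metalloproteinase genes Mmp3, Mmp8 and Mmp10. Casp4 stood at 10.18 in that tumor, against 8.16 and 7.76 in line 31 tumors 1 and 2. Gria4 stood at 6.84, against 4.58 and 4.43, and Mmp3 at 10.48, against 7.78 and 7.66.

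The lowest running median, -1.44, was also in line 31 tumor 3, on chromosome 4 around Ttc39b. There the 2 Met-low tumors of line 31 were the ones that stood apart. Zdhhc21, a palmitoyltransferase gene, was at 9.96 and 9.14 in line 31 tumors 1 and 2 and at 7.24 to 7.62 in the other 7 tumors. Nfib, a transcription factor gene of the same stretch, was at 10.84 and 10.29 in those 2 tumors and at 8.24 to 9.17 in the others. Nfib was separated in the lower direction in all 3 lines, with differences of -1.98, -0.55 and -0.25. In the other 3 Met-high tumors no running median was below -0.55.

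**Figure D3:**
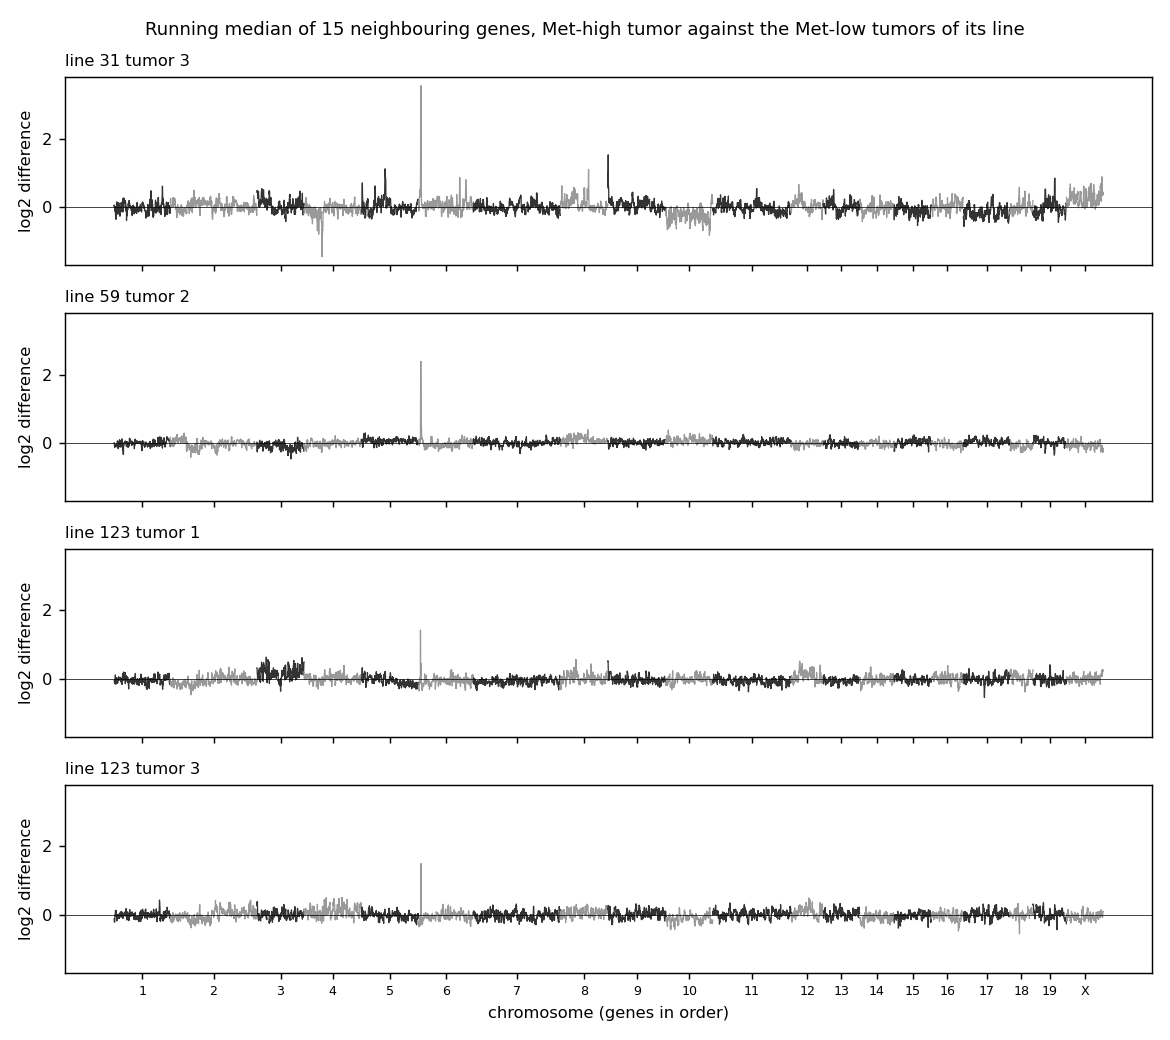
Running median over 15 neighbouring genes of the log2 difference between each Met-high tumor and the Met-low tumors of its line, with genes in order along the chromosomes (alternating shades), 1 panel per tumor. The highest peak of each panel, 3.55, 2.39, 1.43 and 1.5 from top to bottom, is on chromosome 6 at Met.

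No listed gene for the ligand or the signalling partners of MET was separated. With 3.41% of all genes separated higher and 3.25% lower, lists this short would hold few separated genes, so those counts say little. Hgf stood at 10.10, 7.51, 7.15 and 7.75 in the Met-high tumors, and at 7.44, 6.80, 7.14, 7.29 and 7.99 in the Met-low tumors. It was high in line 31 tumor 3 alone, and its difference of 0.91 ± 0.51 was made of 2.98 in line 31, 0.30 in line 59 and -0.54 in line 123. Of the 19 measured genes for the ligand, its activating proteases, their inhibitors and co-receptors, 0 were separated and the median difference was 0.02. Hpn and St14, which encode membrane proteases that cleave pro-HGF, differed by -0.10 ± 0.12 and -0.03 ± 0.13. Of 25 adaptors and effectors of MET, 0 were separated, and the differences lay between -0.30 (Shc1) and 0.31 (Akt1), with a median of -0.02. Gab1, the docking adaptor, differed by -0.09 ± 0.14. These pathway genes, and the members of other lists named below that were not separated, are named for their role, after the values were seen.

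Among 21 genes that respond to MAPK signalling, 3 were separated in the higher direction and 1 in the lower, with a median of 0.07. Dusp4, a phosphatase gene that damps ERK signalling, stood at 6.18, 6.02, 6.10 and 5.85 in the Met-high tumors, and at 5.32, 5.36, 5.98, 5.64 and 5.05 in the Met-low tumors, a difference of 0.66 ± 0.16. Ier3, an immediate early gene, differed by 0.79 ± 0.27, or 0.79, 0.67 and 0.90 by line. The third gene separated in the higher direction was Spry2, a feedback inhibitor gene, with the smaller difference of 0.12 ± 0.11, or 0.09, 0.11 and 0.17 by line. The separated lower gene was Epha4, an ephrin receptor gene, at -0.50 ± 0.19. Spry4 and Dusp6, which also damp the pathway, were not separated and differed by -0.09 ± 0.11 and -0.04 ± 0.18.

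Of 34 other receptor tyrosine kinase and ligand genes, 1 was separated in the higher direction and 4 in the lower. Pdgfd, a platelet-derived growth factor gene, stood at 6.44, 6.56, 6.92 and 7.02 in the Met-high tumors, and at 5.02, 4.47, 6.29, 6.08 and 6.54 in the Met-low tumors. Its difference of 0.83 ± 0.24 came mostly from line 31, with 1.70, 0.38 and 0.43 by line. The lower ones were Pdgfb (-0.50 ± 0.16), Pdgfa (-0.20 ± 0.11), Fgf2 (-0.63 ± 0.19) and Epha3 (-0.82 ± 0.24). Epha3, an ephrin receptor gene, was at 6.99 to 8.52 in line 123 and at 4.47 to 5.73 in the other lines, so its sign rests on the line block: without it the difference was 0.08. Egfr and Pdgfra, receptors of many gliomas, differed by -0.13 ± 0.16 and -0.04 ± 0.18.

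Away from chromosome 6, several genes of the response to low oxygen were higher in the Met-high tumors. Of 24 measured hypoxia and glycolysis genes, 5 were separated in the higher direction (20.8%: Egln3, Bnip3, Adm, Ankrd37 and Pdk1) and 0 in the lower, against 3.41% and 3.25% of all genes. The median difference was 0.27, against -0.005 for all genes. Egln3 encodes a prolyl hydroxylase that marks hypoxia-inducible factor for breakdown. It stood at 9.12, 8.04, 8.55 and 9.17 in the Met-high tumors, and at 8.12, 8.31, 7.1, 6.55 and 7.34 in the Met-low tumors, a difference of 1.21 ± 0.19. Bnip3 encodes a mitochondrial receptor for mitophagy. It stood at 9.96, 9.35, 8.49 and 9.12, against 8.92, 8.44, 9.16, 7.39 and 7.69, a difference of 1.16 ± 0.33. For both genes the classes overlapped across lines and parted only within each line.

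Adm, the gene of the vessel-widening peptide adrenomedullin, differed by 0.62 ± 0.16, Ankrd37 by 0.42 ± 0.15 and Pdk1, a brake on pyruvate entry into mitochondria, by 0.33 ± 0.20. The glycolytic genes proper were not separated. Ldha differed by 0.22 ± 0.30, Pgk1 by 0.69 ± 0.25 and the glucose transporter gene Slc2a1 by 0.61 ± 0.48, of which 1.82 came from line 123 and -0.41 from line 31. The list's median was 0.65 in line 123, 0.24 in line 59 and 0.04 in line 31. With the Met-high class cut to the highest Met tumor of each line, the count of 5 became 1, and without line 59 tumor 1 or 2 it became 8. The list's summed level was 13.36 to 14 in Met-high and 12.91 to 13.76 in Met-low tumors.

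The promoters of the genes raised in all 4 Met-high tumors and of the hypoxia genes with the largest differences are shown because hypoxia-inducible factor binds a short core, ACGTG or GCGTG. Each is the 250 bases before the start of the gene, from RefSeq (GRCm38.p6), in the direction of the gene, with every match to ACGTG or GCGTG on either strand in capitals. The Met promoter is chr6:17463707-17463956 (plus strand), that of Capza2 is chr6:17636760-17637009 (plus strand), that of Egln3 is chr12:54203875-54204124 (minus strand) and that of Bnip3 is chr7:138909507-138909756 (minus strand).
Met: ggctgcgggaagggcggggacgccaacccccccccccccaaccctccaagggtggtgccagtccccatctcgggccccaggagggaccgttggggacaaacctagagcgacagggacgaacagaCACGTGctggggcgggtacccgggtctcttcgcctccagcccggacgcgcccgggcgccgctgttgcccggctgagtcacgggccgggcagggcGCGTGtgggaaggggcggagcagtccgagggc
Capza2: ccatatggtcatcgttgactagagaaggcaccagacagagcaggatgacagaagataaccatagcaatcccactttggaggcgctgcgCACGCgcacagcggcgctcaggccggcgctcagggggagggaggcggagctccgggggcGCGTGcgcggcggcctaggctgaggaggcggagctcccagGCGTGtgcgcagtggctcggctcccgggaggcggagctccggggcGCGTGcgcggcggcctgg
Egln3: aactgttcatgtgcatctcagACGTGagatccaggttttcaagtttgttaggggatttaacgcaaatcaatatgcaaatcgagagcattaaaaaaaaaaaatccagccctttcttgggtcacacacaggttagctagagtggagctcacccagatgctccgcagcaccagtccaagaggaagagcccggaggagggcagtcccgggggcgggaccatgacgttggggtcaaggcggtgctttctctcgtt
Bnip3: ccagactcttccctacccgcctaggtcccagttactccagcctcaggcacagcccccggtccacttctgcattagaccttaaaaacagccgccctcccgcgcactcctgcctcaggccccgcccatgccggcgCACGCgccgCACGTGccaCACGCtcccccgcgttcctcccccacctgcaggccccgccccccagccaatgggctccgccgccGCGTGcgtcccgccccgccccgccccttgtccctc
The windows held 3, 4, 1 and 5 matches in that order, a CACGTG counting on both strands. Of 32851 RefSeq promoter windows of the same length, 12679 held a match (38.6%), so the presence of the letters is common. Binding was not measured in the files used here.

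Some genes of cell division were higher by small amounts. Of 29 cell cycle genes, 5 were separated in the higher direction (17.2%: Plk1, Cdk1, Rrm1, Ccnb2 and Mcm5) and 0 in the lower, with a median of 0.27. Cdk1, the kinase that drives entry into mitosis, stood at 7.66, 7.98, 7.87 and 7.46 in the Met-high tumors, and at 7.22, 6.91, 7.60, 7.28 and 7.42 in the Met-low tumors, a difference of 0.46 ± 0.15. Plk1, a mitotic kinase gene, differed by 0.51 ± 0.15 and Rrm1, a subunit gene of the enzyme that makes deoxynucleotides, by 0.42 ± 0.13. Mki67 and Top2a, the usual proliferation markers, were not separated, at 0.23 ± 0.21 and 0.34 ± 0.26, and in line 59 their differences were -0.07 and -0.20. The list's median was 0.58 in line 31, 0.05 in line 59 and 0.32 in line 123. With the highest Met tumor of each line alone as Met-high the count of 5 became 1, and without line 59 tumor 1 or 2 it became 12 or 16.

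Cdkn2c, the gene of the cyclin-dependent kinase inhibitor p18, was higher as well. It stood at 8.86, 8.93, 7.16 and 6.82 in the Met-high tumors, and at 6.77, 6.83, 7.71, 7.48 and 6.60 in the Met-low tumors, a difference of 1.26 ± 0.25. Of the 20 cell cycle inhibitor and p53 target genes, it and Sesn2 (0.45 ± 0.16) were the 2 separated ones, and the median was 0.01.

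Tnfrsf9 and Upp1, which lie outside the lists and were named after their values were seen, were higher in all 3 lines. Tnfrsf9, the gene of the T cell co-stimulatory receptor 4-1BB, stood at 7.14, 7.60, 6.56 and 6.95 in the Met-high tumors, and at 6.03, 6.0, 6.61, 6.52 and 5.74 in the Met-low tumors. Its difference was 1.06 ± 0.12, or 1.13, 1.04 and 1.01 by line. Upp1, the gene of uridine phosphorylase, stood at 6.62, 7.48, 7.17 and 7.21, against 5.51, 5.79, 6.32, 6.08 and 5.44, a difference of 1.34 ± 0.16. Line 1 tumors spanned both classes for both genes, at 6.44 to 7.76 for Tnfrsf9 and 5.56 to 7.60 for Upp1.

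Other separated genes with large differences were carried mostly by line 31. Il33, the gene of an alarm cytokine, stood at 9.72, 7.22, 8.49 and 7.70 in the Met-high tumors, and at 5.65, 5.52, 6.47, 7.09 and 7.02 in the Met-low tumors. Its difference of 1.89 ± 0.55 was made of 4.13, 0.44 and 1.08. Line 1 tumors, below the Met threshold, had Il33 at 9.12 to 9.98. Gsta4, which encodes a glutathione transferase for lipid peroxidation products, differed by 1.58 ± 0.37, and Bche, the gene of butyrylcholinesterase, by 1.44 ± 0.36. Ggct, the gene of a glutathione cycle enzyme, was even across the lines, with 1.16, 1.81 and 1.47 and a mean of 1.48 ± 0.32. Prl2c5 differed by 1.97 ± 0.57, but its family holds near-identical copies that a probe set may not part, so the gene is uncertain.

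Gap43, a growth cone gene and the single separated one of 17 neuron markers, stood at 8.51, 9.25, 8.80 and 8.69 in the Met-high tumors, and at 6.33, 5.8, 8.17, 8.11 and 7.89 in the Met-low tumors. Its difference was 1.47 ± 0.26, while the median of the neuron markers was -0.07. Ccl2, the monocyte-attracting chemokine gene, stood at 9.95, 8.69, 8.33 and 8.31, against 8.84, 8.69, 8.28, 8.02 and 7.57, a difference of 0.82 ± 0.14. Ccr2, which encodes its receptor on monocytes, went the other way, at 9.95, 8.81, 8.74 and 9.02, against 11.13, 10.33, 9.68, 9.32 and 9.81, a difference of -0.80 ± 0.18. Ccr2 was the 1 separated gene of 20 macrophage markers, whose median was -0.20, or -0.51, -0.52 and 0.14 by line. The summed level of the macrophage markers was 13.03 to 13.48 in Met-high and 13.18 to 14.05 in Met-low tumors, so the classes overlapped.

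**Figure D4:**
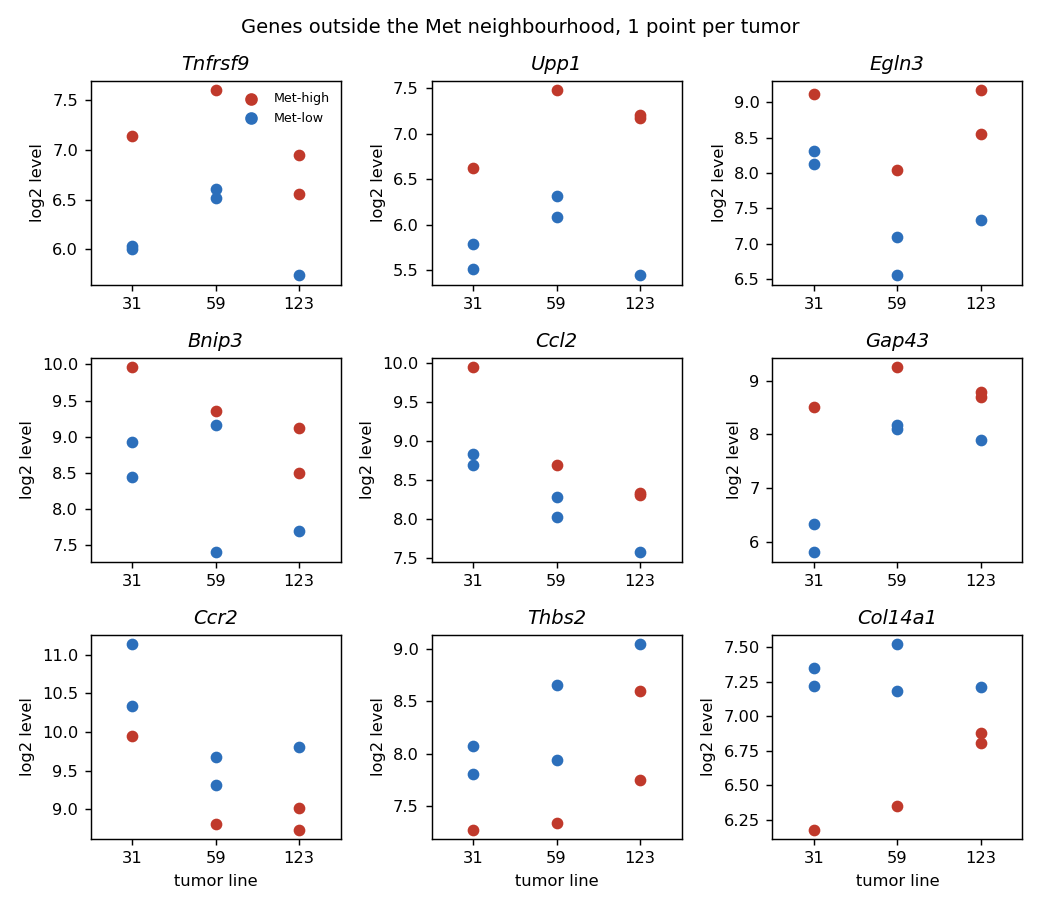
Log2 level of 9 genes outside the Met neighbourhood in each of the 9 tumors, by line, with Met-high tumors in red and Met-low tumors in blue and an own vertical scale for each gene. In every panel each red point lies beyond each blue point of its line: above for Tnfrsf9, Upp1, Egln3, Bnip3, Ccl2 and Gap43, and below for Ccr2, Thbs2 and Col14a1. All 9 are separated genes, so this pattern was fixed by the choice of genes.

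Several matrix genes were lower in the Met-high tumors. Of 27 collagen and matrix genes, 7 were separated in the lower direction (25.9%: Col8a1, Thbs2, Col11a1, Col1a2, Col6a2, Col5a2 and Eln) and 0 in the higher, with a median of -0.22. The list's median was -0.04 in line 31, -0.22 in line 59 and -0.34 in line 123. Its summed level was 14.34 to 14.83 in Met-high and 14.48 to 14.93 in Met-low tumors, so the classes overlapped. Thbs2, the gene of the matrix glycoprotein thrombospondin-2, stood at 7.28, 7.34, 7.75 and 8.60 in the Met-high tumors, and at 7.81, 8.07, 8.65, 7.94 and 9.04 in the Met-low tumors, a difference of -0.83 ± 0.21. Col11a1, a fibrillar collagen gene, differed by -0.79 ± 0.16 and Col8a1, a short-chain collagen gene, by -0.86 ± 0.19. Col14a1, a collagen gene listed with the fibroblast markers, stood at 6.18, 6.35, 6.81 and 6.88, against 7.22, 7.35, 7.18, 7.52 and 7.21. In Col14a1 the classes did not overlap over the 9 tumors, and the difference was -0.82 ± 0.16.

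Large negative differences were also seen for secreted matrix proteins outside that list. Fmod and Ogn encode the small leucine-rich proteoglycans fibromodulin and osteoglycin. Fmod stood at 5.17, 4.99, 5.58 and 6.01, against 7.51, 9.25, 5.87, 6.19 and 6.16, a difference of -1.54 ± 0.50 that was -3.21 in line 31 and -0.37 in line 123. Ogn differed by -1.34 ± 0.31, Efemp1, the fibulin-3 gene, by -1.18 ± 0.38 and Ccn2, the connective tissue growth factor gene, by -1.05 ± 0.26. Plce1, a phospholipase C gene, differed by -1.22 ± 0.24. Of the 27 genes of the matrix list, 4 had a difference above 0, among them Dcn, the decorin gene, at 0.54 ± 0.38 and Col6a3 at 0.39 ± 0.25. Among those below 0 that were not separated, Lox, the gene of a collagen crosslinking enzyme, differed by -1.09 ± 0.32 and Fn1, the fibronectin gene, by -0.52 ± 0.24.

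Markers of host tissue moved with the classes in some of these tumors. Of 20 skeletal muscle markers, 0 were separated, but all 20 had a negative line-adjusted difference, with a median of -0.79 (-0.95, -0.09 and -1.10 by line). Their summed level was 9.77 to 11.52 in Met-high and 10.29 to 12.54 in Met-low tumors, and no marker was below the 25th percentile of gene levels in all 9 tumors. Of 15 keratinocyte markers, 3 were separated in the lower direction (20%: Krt15, Trp63 and Ivl) and none had a positive difference, with a median of -0.61 (-0.73, -1.39 and -0.06 by line). The count of 3 became 9 without line 123 tumor 2, 7 without line 123 tumor 3 and 1 with arrays centred on their medians. Their summed level was 9.01 to 11.34 in Met-high and 9.08 to 11.51 in Met-low tumors. In line 59 it was 11.51 in Met-low tumor 3 but 9.08 in Met-low tumor 1, close to 9.01 in the Met-high tumor. In line 31 the gaps were small: Ivl stood at 4.45 in the Met-high tumor against 4.55 and 4.46, and Trp63 at 6.04 against 6.09 and 6.09. Krt5, a keratin of basal epidermis, stood at 4.54, 5.09, 7.75 and 8.43, against 6.88, 7.31, 5.65, 8.03 and 7.79, so it was lowest in the Met-high tumors of lines 31 and 59 and not in those of line 123. Serpinb5, the maspin gene of epithelia, was at 6.45 in line 59 tumor 3 and at 3.81 in line 59 tumor 1. The part of skin and muscle tissue in the lower matrix genes was not tested.

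Some neutrophil markers were high in line 31 tumor 3 and others were not. Of 12, 1 was separated, S100a9, the gene of a calcium-binding protein of neutrophil granules, at 9.19, 4.92, 5.31 and 5.12, against 5.43, 5.45, 4.65, 4.78 and 4.85. The median of the list was 1.23 in line 31, -0.07 in line 59 and 0.02 in line 123. Its summed level was 10.60 in line 31 tumor 3 and at most 8.61 in the other 8 tumors of these lines. High values were not limited to that tumor: the line 1 tumors, which are in neither class, had S100a9 at 8.13 to 9.05. They had Mmp8, another gene of the list, at 5.93 to 6.30, against 5.48 in line 31 tumor 3. Mmp8 is also among the genes named above for the stretch of chromosome 9 that was high in line 31 tumor 3. In the same tumor Cxcr2, a chemokine receptor gene of neutrophils, was at 7.72, against 4.13 and 4.63 in line 31 tumors 1 and 2. Ly6g, a defining surface marker of mouse neutrophils, was at 3.79 there, against 4.31 and 3.69. The granule protein genes Ngp, Camp and Ltf were at 3.88, 5.03 and 4.23 there and differed by 0.13, 0.0 and 0.04 in line 31. The interferon response list had a median of 0.83 in line 31, -0.19 in line 59 and 0.13 in line 123. The part of neutrophils in the differences that line 31 carries, such as that of Il33, was not tested.

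Over the 33 lists, which held 586 genes with 551 measured, 9 lists had no separated member. Fibroblast, endothelial, oligodendrocyte lineage, astrocyte and neural stem lists had medians of 0.01, 0.08, -0.03, -0.07 and -0.05. The list of Met neighbours had the highest median, 1.74, followed by the neutrophil list at 0.41, and the skeletal muscle and keratinocyte lists had the lowest.

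**Figure D5:**
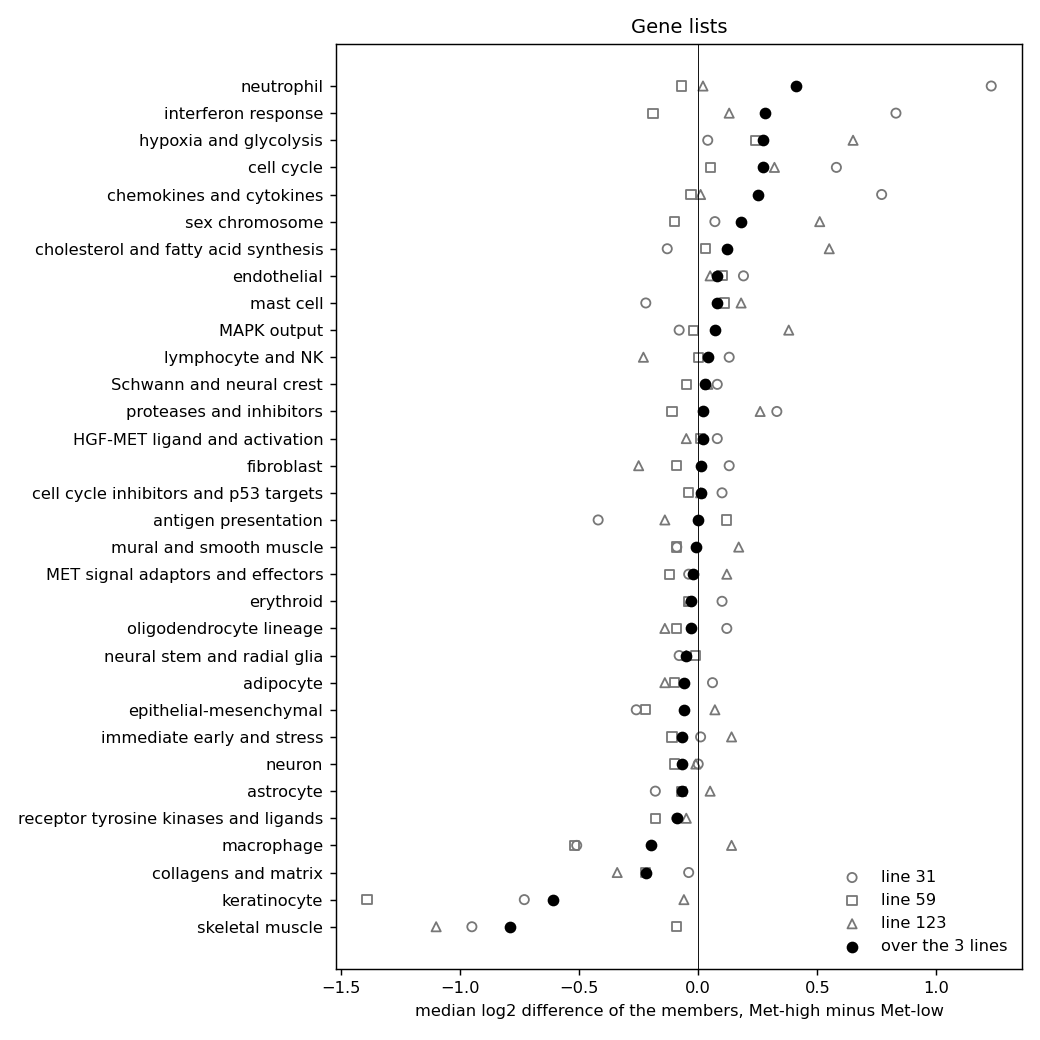
Median log2 difference, Met-high minus Met-low, over the measured members of each gene list other than the Met neighbours, with the line-adjusted value as a filled point and lines 31, 59 and 123 as open symbols. Skeletal muscle (-0.79) and keratinocyte (-0.61) lie lowest and neutrophil (0.41) highest, and for the neutrophil and interferon lists the line 31 value lies far to the right of the other lines.

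The 10 immortalized lines in culture were not used by the rule, so whether a gene goes with Met can be tested there. Each gene's slope on Met (log2 per log2) was fitted with limma, with p-values adjusted by Benjamini-Hochberg over the 19936 genes. No gene passed at 0.05 (0%), the smallest adjusted p from limma was 0.375, and 1505 had an unadjusted p under 0.05 (7.55%). Met varied little among the cultures, with an SD of 0.45 against a class difference of 3.14 in the tumors, so the slopes cover a narrow range of Met. Capza2 had a slope of 0.18 ± 0.12 (SE), with a 95% interval of -0.08 to 0.44, and St7 0.05 ± 0.12 (-0.21 to 0.32). Lsm8 had 0.11 ± 0.11 (-0.13 to 0.36) and Cav1 0.18 ± 0.25 (-0.38 to 0.74). The intervals of Capza2, St7, Lsm8 and Cav1 ended below 1, the slope of a gene that changes as much as Met. That of Cftr, with a slope of 0.70 ± 0.45 (-0.28 to 1.69), included 1. Tes had 0.41 ± 0.24 (-0.12 to 0.95). In the tumors Capza2, St7 and Lsm8 differed by 2.47, 2.85 and 2.84, beside 3.14 for Met.

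For the genes outside the neighbourhood the culture slopes did not pass either. Egln3 had a slope of -0.62 ± 0.51, with an interval of -1.74 to 0.51. Bnip3 had a slope of -0.75 ± 0.19 (-1.17 to -0.32), opposite in sign to its difference in the tumors, with an adjusted p of 0.566 from limma over all genes. Tnfrsf9 had 0.18 ± 0.16 (-0.18 to 0.53), Gap43 0.03 ± 0.28 (-0.58 to 0.64) and Dusp4 1.29 ± 0.32 (0.58 to 2.00), the last with an adjusted p of 0.542 from the same fit. With p53 genotype as a covariate, 2 genes passed: Itga3, an integrin gene, with a slope of 1.54 ± 0.16 and an adjusted p of 0.03, and Lama4, a laminin gene, with -2.43 ± 0.20 and an adjusted p of 0.0064, both from limma.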

How the data were processed

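Each probe set has 1 deposited log2 level per array; RMA, GCOS and Affymetrix Expression Console are named in the submitters' processing notes, and the genome build is not given in the sources used here. RMA summarises the probes of a set after background correction and quantile normalization. No culture array shared an equal value with a tissue array in 180 pairs, so the sets appear to have been normalized separately, which no source used here states, and they were not fitted together. Of 34760 probe sets, 21640 had 1 gene in the platform annotation, 1321 several and 11799 none, which left 19937 genes, each read by its probe set of highest mean. The members, gene lists and tests were chosen with earlier results of these data known.

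Differences came from limma 3.58.1 (R 4.3.3) on the 9 tumors, with the line as a block, and culture slopes from limma on the 10 lines, both tested on simulated data. p-values were adjusted by Benjamini-Hochberg over all genes but Met. Gene order came from RefSeq (GRCm38.p6). Tables and figures used Python 3.11.15, numpy 2.4.6, pandas 2.3.3 and matplotlib 3.10.9. Named genes were the 12 highest and 12 lowest separated genes with a settled symbol, with Met, Hgf and listed neighbours. Added to these were up to 5 separated members of each list and 18 markers. The 6 genes with the highest and the 3 with the most negative correlation with Met were also named. Others are said to be chosen after their values were seen. Alternatives were other scalings, gene filters, splits and models, and leaving out each tumor, line or culture.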

Additional observations from a re-analysis of the deposited data

Results flagged for a closer look

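For 19 genes, Met and neighbours raised in at least 1 Met-high tumor, 57 groups of values were looked at for an outlying sample. Together with a separate rule for opposite directions between lines, 8 results stood out. The genes were taken because they were raised in a Met-high tumor, so outlying Met-high tumors were partly built in and no chance rate is given. In the Met-high tumors, Tmem106b, a lysosomal membrane protein gene, was far above the others in line 123 tumor 1, at 11.80 against 8.83 to 9.19, and Vwde was at 10.63 there against 4.24 to 4.67. Tfec was far above the others in line 31 tumor 3, at 7.46 against 5.79 to 5.99. Line 123 tumor 3 was far below the other Met-high tumors for Gm4876, at 5.67 against 9.24 to 9.89, and for Cav2, at 8.39 against 11.46 to 11.85. Among the Met-low tumors, Wnt2 was lowest in line 59 tumor 1, at 4.73 against 5.17 to 5.28.

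A pair of genes moved in opposite directions in line 123 and in lines 31 and 59, with every tumor on its side. The difference between the lines was not tested. Tspan12 was higher in the Met-high tumors of lines 31 and 59, by 1.34 and 1.02, and lower in those of line 123, at -0.19. Ptprz1, a receptor phosphatase gene of neural progenitors, was higher in the Met-high tumors of line 123, by 0.66. It was lower in those of lines 31 and 59, at -0.60 and -2.11.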

How the results depend on the processing

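Of 2375 values over 114 named genes under the alternatives, 2339 moved by less than the spread between tumors and 35 moved more. A reversal of sign was counted only for separated genes, and there was 1: Epha3 went from -0.82 to 0.08 with no line block. Some genes that were not separated changed sign too. Among them, Hgf went from 0.91 to -0.12 without line 31 tumor 3, and Xist from 0.48 to -1.06 with no line block. The 1 limma call, Capza2, became 0 with arrays centred on their medians, 3 with quantile normalization (with Tnfrsf9 and Upp1), 5 with the highest Met of each line as the class (Cav2, Ggct, Gm4876, Itgbl1 and Tes, without Capza2), 3 with Met as a numeric covariate, 0 without line 31, 0 without line 59, 6 without line 123, and 0 to 5 without 1 tumor (0 without line 31 tumor 1 or 3 or line 59 tumor 1 or 3, 4 or 5 without line 123 tumor 1 or 3). It was 0 with the replicate block, although the numbers do not pair the tumors (deviations of same-numbered tumors correlated at -0.18 to 0.05). Chosen after seeing the data, keeping Met in the adjustment gave 3 besides Met and leaving out the Met neighbourhood gave 0. The 679 separated genes higher became 447 among genes above the median level, 1923, 2401 and 1905 without line 31, 59 or 123, and 850 to 2401 without 1 tumor; the 647 lower became 303, 1998, 2358 and 1762, and 844 to 2358. These counts grow when tumors are left out because fewer conditions remain. The hypoxia count of 5 became 1 with the highest Met of each line, 8 without line 59, and 5 to 8 without 1 tumor; the cell cycle count of 5 became 1, 16, and 5 to 16 (12 without line 59 tumor 1). The matrix count of 7 became 7 to 10 without 1 tumor. The keratinocyte count of 3 became 1 with centred arrays, 7 with the highest Met of each line, 9 without line 123, and 3 to 9 without 1 tumor (7 without line 123 tumor 3). The culture test's 0 became 2 with p53 genotype as a covariate and stayed 0 without any 1 culture. The causes were not tested. The number of arrays limits the precision: line 123 has 1 Met-low tumor and lines 31 and 59 have 1 Met-high tumor each.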

Other observations

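Genes chosen for following Met over the 9 tumors after each line's mean was subtracted included Rnf11, a ubiquitin ligase gene, Zbtb10, a zinc finger gene, and Nabp1, a single-stranded DNA binding protein gene. Rnf11 stood at 8.79, 8.40, 8.02 and 7.87 in the Met-high tumors, and at 7.78, 7.58, 7.45, 7.33 and 7.45 in the Met-low tumors, a difference of 0.87 ± 0.14. Zbtb10 differed by 0.78 ± 0.14 and Nabp1 by 0.50 ± 0.12. At the other end, Ddit4l, a stress-induced inhibitor of mTOR, stood at 6.89, 5.54, 6.23 and 6.30, against 7.41, 7.46, 6.0, 5.94 and 6.72, a difference of -0.47 ± 0.11, and Galns, a lysosomal sulfatase gene, differed by -0.16 ± 0.11. They were picked for their likeness to Met, so these values support nothing further.

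Of 6 measured sex chromosome genes, 1 was separated between the classes: Zfy1, a Y-linked gene, was lower, by line at -0.17, -0.30 and -0.18. Its level was 3.02 to 3.63 over the 9 tumors, below 4.73, the 25th percentile of gene levels there. In line 31 it stood at 3.02 in the Met-high tumor, against 3.35 and 3.04, so little is read from it. Xist, the X-inactivation RNA, was at 8.34 to 9.85 in the tumors of lines 31 and 59 and at 3.77 to 4.56 in those of line 123. Eif2s3y, another Y-linked gene, was at 5.82 to 7.09 in lines 31 and 59 and at 6.02 to 7.69 in line 123, so its ranges overlapped.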
